A study of Mus musculus with 18 samples.

Results

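The 10 genes described here, which store, translate or degrade maternal messenger RNA, were followed across mouse oocyte libraries: Ddx4, Dazl, Ybx2, Cpeb1, Zar1, Zar1l, Btg4, Cnot6l, Cnot7 and Pabpc1l. They were chosen by symbol, and all 10 of 10 were found among the 28252 genes with a deposited TPM and the 53715 genes with a deposited count. TPM is a level per transcript length, as a share of a library that sums to 1000000. Growing oocytes make and stockpile messenger RNA, and transcription stops before the oocyte matures to metaphase of the second meiotic division (MII). From then on proteins come from stored messages, whose poly(A) tails are lengthened to start translation or removed by the CCR4-NOT deadenylase to start decay.

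The 18 libraries came from in vivo mouse oocytes of the strain C57Bl/6j x CBA/J. Oocytes of primordial follicles, those of primary follicles and mature MII oocytes each came from a sham and an NTY group, with 3 libraries per group, and the labels do not expand NTY or give the age of the animals. By the labelled protocol, the 12 primordial and primary libraries were laser microdissected, pooled by stage, amplified and enriched for coding RNA by capture, whereas the 6 MII libraries were made from collected oocytes by Smart-seq II. Stage and library method therefore cannot be told apart between these sets, and levels across them are set side by side without a test. Nothing in the labels ties a library to an animal, so p-values measure the spread between these libraries, which may be technical.

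Total counts ran from 15149564 to 29205503 in the microdissected libraries and from 8652089 to 9978830 in the MII libraries. The number of genes with a count ran from 6147 to 13755 in the microdissected libraries and from 12782 to 18239 in the MII libraries. By group it ran from 6147 to 9852 in primordial sham, 6524 to 12461 in primordial NTY, 10565 to 13755 in primary sham and 7474 to 10255 in primary NTY. In MII it ran from 15442 to 18239 in sham and 12782 to 13608 in NTY. Several of the groups compared below thus did not overlap in this number, and its part in their differences was not tested. The microdissected libraries thus held more counts, mostly spread over fewer genes. A gene at 0 in a microdissected library may still be present below the level of 3 counts, which was 0.103 to 0.198 CPM (counts scaled to a library total of 1000000) there. Such limits cover counting error only.

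The labelled cell type was checked against 12 oocyte markers, all of them found in the table. Their summed TPM was 353, 1008 and 246 in primordial sham, 141, 413 and 2.56 in primordial NTY, 505, 361 and 397 in primary sham, and 240, 134 and 474 in primary NTY. Some of these sums were mostly 1 gene. Zp1 was at 278 TPM in primordial sham replicate 1 and Kit at 152 TPM in primary NTY replicate 1, each with 4 of the 12 markers at 0. Kit was at 82.6 TPM in primordial NTY replicate 1, with 3 markers at 0. In the MII libraries the sum was 9687, 12892 and 15002 in sham and 13078, 16530 and 9563 in NTY. Gdf9 led the list in 5 of the 6 MII libraries, and Sohlh1 was at 0 in 5 of them. Primordial NTY replicate 3 stood apart, since 8 of the 12 oocyte markers had at most 3 counts there, Bmp15, Zp1, Figla, Sohlh1, Oosp1 and Oosp2 were at 0, and the most abundant marker, Nobox, reached 1.20 TPM. The markers thus went against the label of this library, and the main values that use it are given also without it, while ranges over the microdissected libraries include it. Without it the microdissected medians given below were 243 TPM for Cnot6l, 25.6 for Zar1, 778 for Ybx2, 2113 for Pabpc1 and 1274 for Ybx1.

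Markers of somatic cells were abundant in the microdissected libraries. The 12 granulosa markers summed to 371, 601 and 2219 TPM in primordial sham, 1809, 3773 and 3451 in primordial NTY, 1475, 1218 and 2552 in primary sham and 1619, 2305 and 851 in primary NTY, led by Wt1, Inha or Foxl2. The 6 stroma markers summed to 530, 460 and 3488 TPM in primordial sham, 1918, 1259 and 5802 in primordial NTY, 932, 1937 and 857 in primary sham and 7486, 1539 and 885 in primary NTY, with Col1a1 the most abundant in 11 of the 12 libraries. Primordial NTY replicate 3 and primary NTY replicate 1 had the highest stroma sums. In MII libraries the granulosa sum ran from 53.7 to 121 TPM, led by Esr2 in 5 libraries and by Cyp19a1 in the other, with Amhr2, Foxl2 and Wt1 at 0 in all 6. Cyp19a1 was at 0 in 11 of the 12 microdissected libraries. The stroma sum in MII ran from 0 to 1.29 TPM. The other lists were low in the microdissected libraries at their medians: cumulus 0, theca 0.837, endothelium 0.569 and blood and immune 0.570 TPM, against 0, 7.84, 52.5 and 6.75 TPM in MII. Single libraries stood above these medians, with a blood and immune sum of 174 TPM in primary sham replicate 1 (all of it Hba-a1) and an endothelium sum of 48.6 TPM in primordial sham replicate 2 (mostly Cdh5). The endothelium sum in MII was mostly Pecam1, at 36.8 to 61.7 TPM, with Cdh5 at 0 in all 6 libraries. Of the 4 cumulus markers, 3 were found in the table. In bulk samples, fewer cells of a type and less RNA per cell cannot be told apart, and the part of somatic RNA in the levels given here was not tested.

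**Figure D1:**
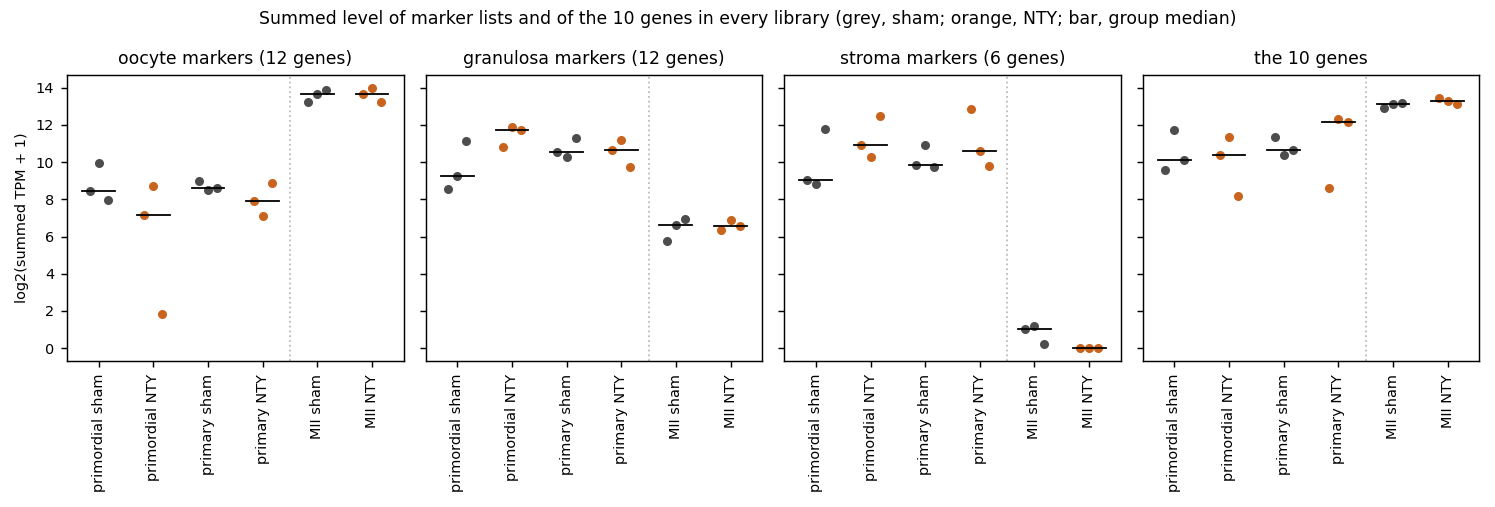
Summed TPM, as log2(sum + 1), of the oocyte, granulosa and stroma markers and of the 10 genes in each library by group, with a bar at the group median. Oocyte markers are near 0 in primordial NTY replicate 3 (2.56 TPM), and stroma markers are at or near 0 in the MII libraries (at most 1.29 TPM).

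The most abundant of the 10 genes in MII oocytes was Btg4, an adaptor that recruits the CCR4-NOT deadenylase to maternal messages. Its level was 5558, 6880 and 7225 TPM in MII sham and 8545, 8352 and 6358 TPM in MII NTY. In the microdissected libraries it was 0, 1.19 and 0.486 TPM in primordial sham, 0.292, 1.82 and 0 in primordial NTY, 2.10, 0.103 and 1.80 in primary sham and 0, 1.59 and 2.88 in primary NTY. Every MII library was therefore above every microdissected library, where the highest count was 59. In MII libraries Btg4 ranked between place 11 and place 21 of all genes by TPM, and it made up 70.9% to 82.2% of the summed TPM of the 10 genes. The lowest of the 6 MII levels was a sham library and the highest an NTY library, and the groups overlapped.

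Cnot7, a catalytic deadenylase subunit of CCR4-NOT, was next. It was at 604, 743 and 691 TPM in MII sham and at 405, 445 and 1076 TPM in MII NTY. The microdissected levels were 52.0, 13.9 and 54.8 TPM in primordial sham, 34.9, 23.8 and 62.7 in primordial NTY, 131, 102 and 77.1 in primary sham and 15.7, 0.240 and 90.4 in primary NTY. The MII libraries were all higher, and the NTY libraries enclosed the sham libraries within MII. Cnot6l, the other deadenylase among the 10 genes, did not share this order: it was at 58.5, 71.6 and 100 TPM in MII sham and 78.3, 121 and 42.9 in MII NTY. Its microdissected level ran from 0.329 to 618 TPM with a median of 236, above the MII median of 75.0. Cnot6l was the highest of the 10 genes in primordial NTY replicate 3, at 228 TPM, although that library held few counts of oocyte markers.

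Zar1l and Zar1 are related zygote arrest proteins that bind RNA and hold maternal messages in store. Zar1l was at 37.8, 33.3 and 28.4 TPM in MII sham and 92.8, 46.3 and 43.8 TPM in MII NTY. It was at most 4.58 TPM in a microdissected library, with 0 counts in 6 of 12. It was thus higher in every MII library, and within MII the NTY libraries did not overlap the sham libraries in TPM. Zar1 was at 729, 113 and 295 TPM in MII sham and 1369, 211 and 62.6 TPM in MII NTY, against 0 to 95.5 TPM with a median of 25.4 in the microdissected libraries. Its MII levels were the most uneven of the 10 genes, with a highest level 21.9 times the lowest. This ratio was 11.6 without MII NTY replicate 1, where Ybx2 was more uneven (13.5), and 12.1 without MII NTY replicate 3. Among 1354 genes with a mean of at least 100 TPM in MII, the median of this ratio was 2.20, and 4 genes, or 0.295%, were at least as uneven as Zar1, itself included. Zar1 was picked from the 10 genes by this same ratio, so the share is a description over all 6 MII libraries and no test. The high and low Zar1 libraries lay in both treatment groups.

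Dazl and Ddx4 are germ cell proteins. Dazl binds messages and promotes their translation, and Ddx4 is an RNA helicase. Dazl was the most even of the 10 genes in MII, at 555, 638 and 629 TPM in sham and 510, 520 and 635 in NTY. The highest of these levels was 1.25 times the lowest. Its microdissected levels had no such evenness: 0.937, 855 and 21.1 TPM in primordial sham, 16.2, 89.9 and 0.345 in primordial NTY, 404, 0.180 and 131 in primary sham and 298, 129 and 218 in primary NTY. Ddx4 was at 217, 368 and 271 TPM in MII sham and 216, 336 and 453 in MII NTY. In the microdissected libraries it was 5.06, 68.1 and 315 TPM in primordial sham, 0.0495, 139 and 0.0421 in primordial NTY, 146, 163 and 44.3 in primary sham and 7.64, 0.186 and 378 in primary NTY. Across the microdissected libraries both genes thus ranged from near 0 upward, Ddx4 into the MII range and Dazl above it in primordial sham replicate 2 alone, and the library at the bottom differed between them.

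Ybx2, a Y-box protein that coats and stabilizes maternal messages, had the opposite place. It was the most abundant of the 10 genes at the microdissected median, 771 TPM, and the least abundant at the MII median, 11.3 TPM. The microdissected levels were 402, 1719 and 255 TPM in primordial sham, 979, 1657 and 1.14 in primordial NTY, 764, 778 and 687 in primary sham and 2.60, 4849 and 2898 in primary NTY. In MII it was 8.29, 11.3 and 11.2 TPM in sham and 15.8, 25.4 and 1.88 in NTY. In all, 10 of the 12 microdissected libraries lay above every MII library, and the others were primary NTY replicate 1, inside the MII range, and primordial NTY replicate 3, below every MII library. These 2 libraries also had the highest stroma sums. Cpeb1, which binds a uridine-rich element and directs cytoplasmic polyadenylation, was at 258, 319 and 397 TPM in primordial sham, 53.7, 252 and 0.0302 in primordial NTY, 423, 225 and 225 in primary sham and 66.0, 92.7 and 351 in primary NTY. Its MII levels were 71.7, 140 and 112 TPM in sham and 81.5, 79.7 and 118 in NTY, inside the microdissected range.

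Pabpc1l, a poly(A) binding protein of oocytes and early embryos, was low in MII and in most microdissected libraries. Its MII levels were 5.39, 19.3 and 16.7 TPM in sham and 14.3, 21.1 and 6.49 in NTY. In the microdissected libraries it was 0, 1.25 and 0 TPM in primordial sham, 0, 0.673 and 0 in primordial NTY, 63.2, 0.388 and 43.1 in primary sham and 0, 1.23 and 164 in primary NTY. In all, 3 primary libraries were above every MII library, and the other 9 microdissected libraries were below every MII library.

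**Figure D2:**
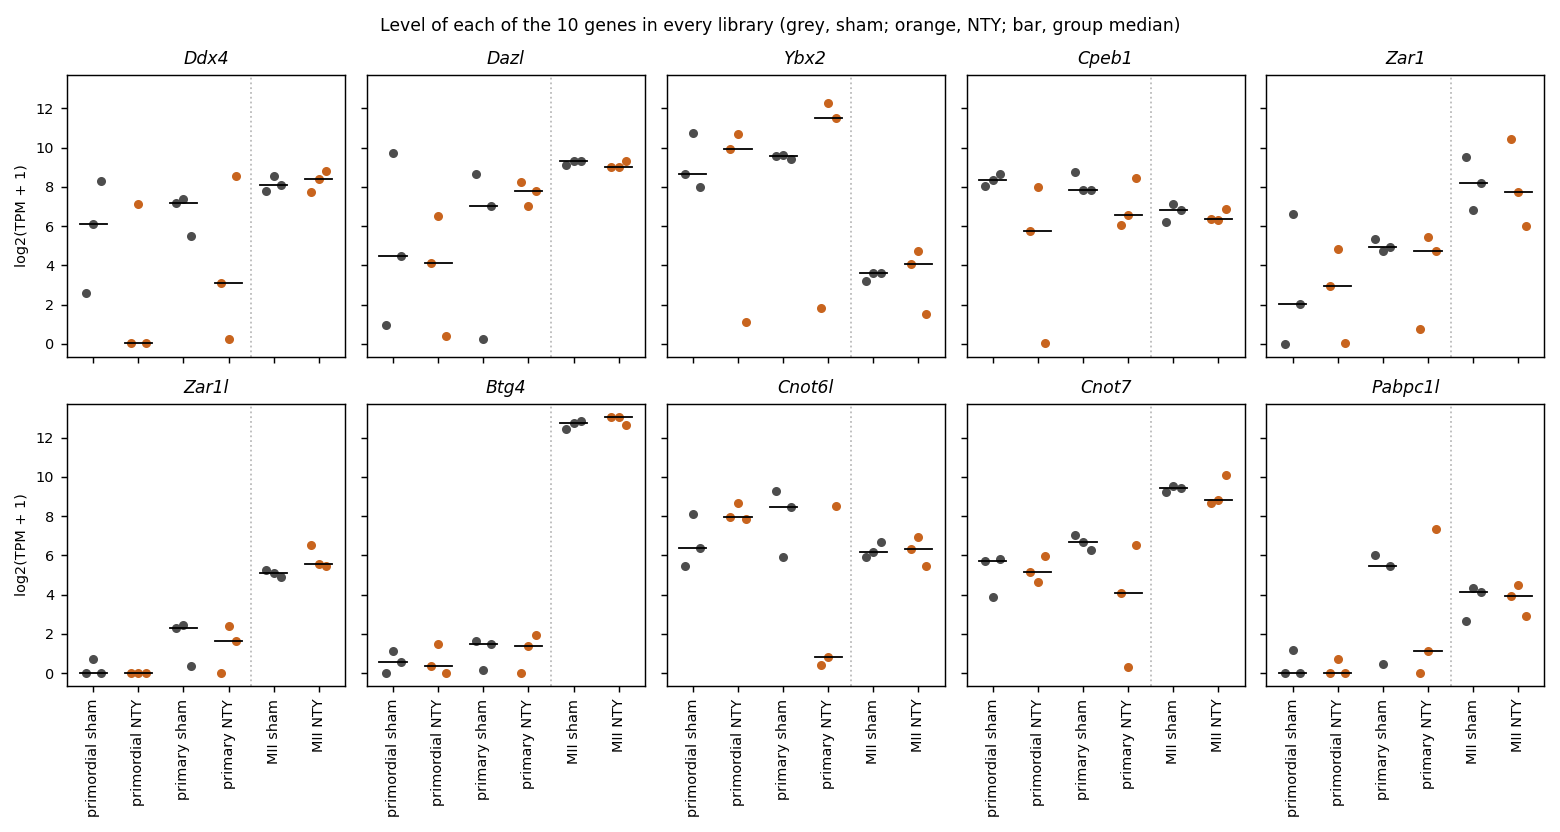
Level of each gene in each of the 18 libraries as log2(TPM + 1), by group, with a bar at the group median and a dotted line between microdissected and MII libraries. Btg4 (5558 TPM or more), Cnot7 and Zar1l are higher in every MII library than in any microdissected library, whereas most Ybx2 levels run the other way.

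Counted over the 10 genes, 3 (Btg4, Cnot7 and Zar1l) had every MII library above every microdissected library, against 14.3% of the 25063 genes above 0 in any library. None of the 10 had every MII library below, against 1.71% of all genes. The same 3 genes were counted with CPM, on TMM or plain library totals, in place of TPM, and without primordial NTY replicate 3. Leaving out primordial sham replicate 2, which held the highest microdissected levels of Dazl and Zar1, raised the count to 5 by adding these 2 genes. In MII the order of the medians was Btg4 (7053 TPM), Cnot7 (647), Dazl (592), Ddx4 (303), Zar1 (253), Cpeb1 (96.8), Cnot6l (75.0), Zar1l (40.8), Pabpc1l (15.5) and Ybx2 (11.3). Only 3 neighbours in this order did not overlap over the 6 libraries: Btg4 and Cnot7, Dazl and Ddx4, and Zar1l and Pabpc1l. In the microdissected libraries every neighbour in the order overlapped.

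Most of these genes have a related gene that is also used in somatic cells, and the pair can be set side by side within a library. A share compared between the sets still carries their differences in library method and in somatic markers. The part of these in the shares was not tested. Pabpc1, the poly(A) binding protein of somatic cells, ran from 239 to 2951 TPM in the microdissected libraries with a median of 2035, and from 1.76 to 8.98 TPM in MII with a median of 3.31. Pabpc1l made up 37.5% to 89.2% of the summed level of the pair in MII, with a median of 79.8%, and was the higher of the pair in 5 of 6 libraries. In the microdissected libraries its median share was 0.0215% (0.0268% without primordial NTY replicate 3) and it was the higher of the pair in 0 of 12. The order of the pair was thus turned between the sets, with MII sham replicate 1 the exception.

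Ybx2 was set against Ybx1, the Y-box protein found in most cells. Ybx1 had a median of 1329 TPM in the microdissected libraries and 104 TPM in MII. Ybx2 made up 2.21% to 18.1% of the pair in MII, with a median of 12.9%, and 0.0707% to 81.2% in the microdissected libraries, with a median of 41.7% (44.0% without primordial NTY replicate 3). Both Y-box genes thus had the lower median in MII, and Ybx1 was the higher of the pair in all 6 MII libraries. Tob1, a somatic relative of Btg4, was at 0 to 8.18 TPM in MII and 0.0545 to 332 TPM in the microdissected libraries. Btg4 made up at least 99.9% of that pair in each MII library, and was the higher in 2 of 12 microdissected libraries.

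The 2 deadenylases differed in how they stood to their relatives. Cnot6l made up 73.6% to 86.9% of its pair with Cnot6 in MII and was the higher in 6 of 6 MII and 8 of 12 microdissected libraries. Cnot7 and Cnot8 were close to equal in MII, where the share of Cnot7 ran from 36.3% to 61.0% with a median of 49.4%. With CPM in place of TPM this median was 68.3%, since Cnot7 and Cnot8 differ in the length by which TPM divides. Cpeb1 made up 78.4% to 87.6% of its pair with Cpeb4 in MII, and 13.9% to 99.6% in the microdissected libraries. Zar1 was above Zar1l in all 6 MII libraries and in the 11 microdissected libraries where either had a count. Boll, a relative of Dazl, was at most 0.162 TPM in MII and reached 70.9 TPM in a microdissected library.

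**Figure D3:**
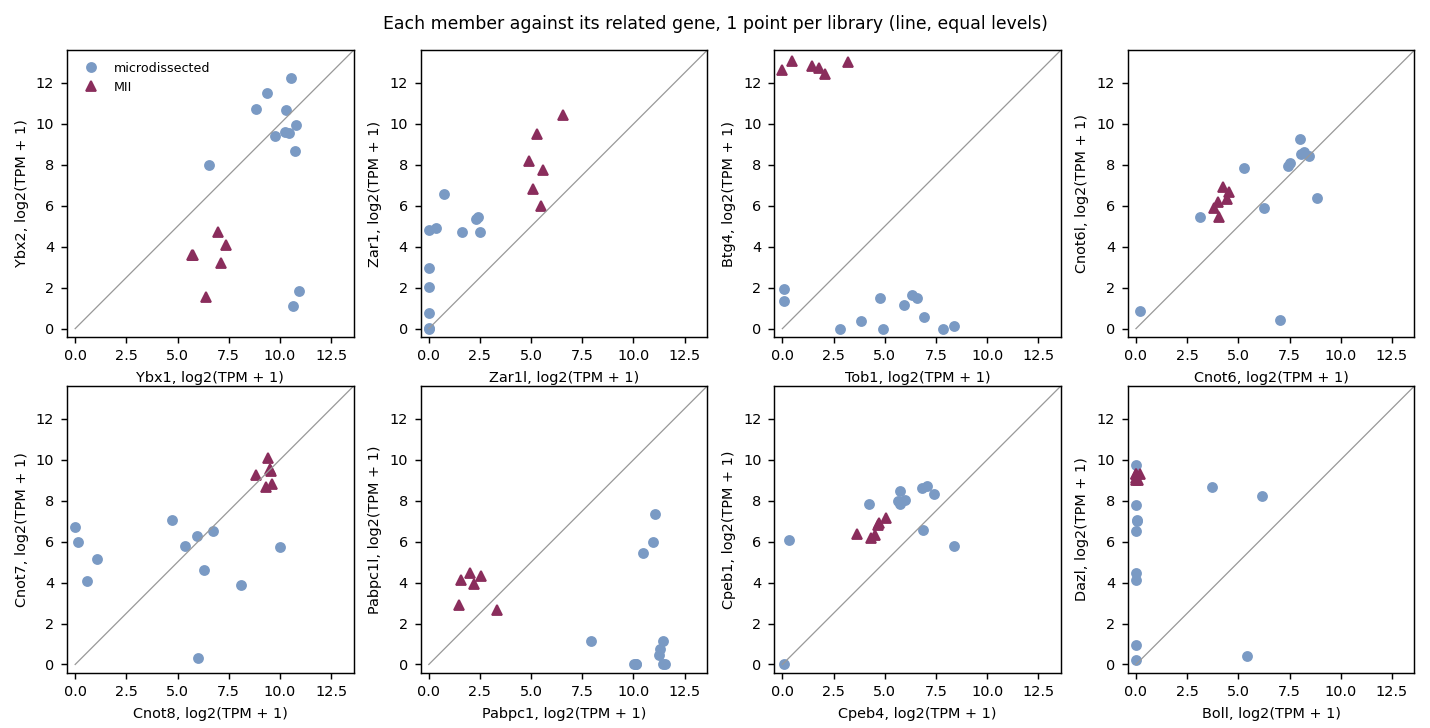
Level of a gene against that of its related gene, both as log2(TPM + 1), with 1 point per library, circles for the 12 microdissected and triangles for the 6 MII libraries, and a line at equal levels. Pabpc1l lies above the line in 5 of 6 MII libraries and below it in all 12 microdissected libraries.

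A wider list of 79 other genes of the same processes, of which 78 were in the TPM table, placed the 10 genes among their partners. Rankings by role below are within this wider list, without the 10 genes. Of the 78 genes, 5 were higher in every MII library (6.41%) and 7 were lower in every MII library (8.97%), against 14.3% and 1.71% of all genes. With TMM library sizes over the 18 libraries the split was 3 higher and 12 lower, against 12.7% and 2.15% of all genes. Among genes of polyadenylation and translation, Pabpn1l, an oocyte form of the nuclear poly(A) binding protein, ran from 630 to 1625 TPM in MII and reached 2.61 TPM in the microdissected libraries, an order like that of Btg4. Pabpn1, its somatic form, ran the other way, from 24.2 to 52.6 TPM in MII and 152 to 1570 TPM in the microdissected libraries. Tent4a, a noncanonical poly(A) polymerase, was also higher in every MII library in TPM (63.5 to 143 against 0 to 36.4), and Eif4g2, a translation initiation factor, was lower (75.6 to 166 against 1060 to 2754).

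Among genes of decapping and decay, Dcp1a, an activator of decapping, ran from 921 to 1361 TPM in MII and from 0.0462 to 268 TPM in the microdissected libraries. It was followed in MII by Edc4 and Lsm1 (medians 168 and 120 TPM). Xrn2, a nuclear exonuclease, was lower in MII, at 56.8 to 162 TPM against 179 to 3580, and had the highest microdissected median of its role, followed by Ythdf3 and Zfp36l1 (375 and 144 TPM). Among genes of deadenylation, Cnot8 was the most abundant in MII (median 703 TPM), followed by Cnot9 (142) and Pan2 (129), whereas Cnot1, the scaffold of CCR4-NOT, was at 0 to 3.85 TPM in MII and 108 to 884 TPM in the microdissected libraries. By the microdissected median Cnot1 (368 TPM) stood between Cnot2 (500) and Btg1 (218). The measured level of Cnot1 was thus near 0 in the libraries where Cnot7, Cnot8 and Btg4 were abundant. The part of library method and of poly(A) tail length in the low MII levels given here was not tested. Among genes of storage, Lsm14b, Lsm14a and Igf2bp2 had the highest MII medians (223, 220 and 212 TPM), and Ddx6, an RNA helicase of storage particles, was lower in every MII library, at 0.293 to 3.57 TPM against 70.7 to 700. Tob2 and Exosc10 were the other genes higher in every MII library, and Tut4 the other gene lower, and these 3 are named after their values were seen. With TMM library sizes Tob2 and Exosc10 overlapped, and with plain library totals Xrn2 did.

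The NTY and sham groups were compared at each stage by edgeR's quasi-likelihood test with Benjamini-Hochberg adjustment over all genes tested, and all 10 genes passed the filter on low counts in both fits. In MII oocytes, 0 of 10 genes were called at an adjusted p under 0.05, against 0% of 12209 genes. At an unadjusted p under 0.05 the count was 0 of 10, against 2.29% of all genes, and DESeq2 called 0 of 10, against 0.238%. The adjusted p was 1.00 for each of the 10 genes after rounding. The standard error of their log2 fold changes ran from 0.22 to 1.05 with a median of 0.39. By levels alone, 1 of 10 genes had groups that did not overlap in TPM, Zar1l with NTY higher, against 7.64% of all genes. With TMM library sizes the Zar1l groups overlapped. The median difference in mean log2(TPM + 1), NTY minus sham, was -0.029 over the 10 genes and -0.11 over the 12365 genes that reached a TPM of 1 in 3 or more libraries, with 4 of the 10 higher in NTY. The 10 genes were taken without this TPM filter, here and in the comparisons below. In the edgeR fit the median log2 fold change was 0.17 over the 10 genes, with 8 higher, and 0.0038 over all genes tested. The 2 measures differ in unit, estimator and scaling. With an MII library left out, the edgeR median over all genes ran from -0.050 (without MII NTY replicate 1) to 0.013 (without MII sham replicate 1).

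In oocytes from primordial follicles, edgeR called 0 of 10 genes between NTY and sham, against 0.0095% of 10522 genes. At an unadjusted p under 0.05 the count was 0 of 10, against 10.9%, and DESeq2 called 0 of 10, against 11.4%. Cpeb1 was lower in each NTY library than in each sham library, the only one of the 10 genes without overlap, against 5.73% of all genes. The oocyte marker sum was lower in 2 of the 3 NTY libraries than in each sham library, and the granulosa sum was higher in 2 of the 3, and their part in the order of Cpeb1 was not tested. The median difference over the 10 genes was -0.25, against 0.14 over 5964 genes, both on the log2(TPM + 1) scale, and -1.47 against 0.12 in the edgeR fit. Some of the 10 genes, such as Zar1l with 0 counts in 5 of the 6 libraries, do not meet the TPM filter of the 5964 genes. With a library of these groups left out, the edgeR median over all genes ran from -0.42 (without primordial NTY replicate 2) to 0.998 (without primordial sham replicate 3). Without primordial NTY replicate 3 the medians on the log2(TPM + 1) scale were 0.117 over the 10 genes and 0.719 over 5626 genes, and in the fit they were -0.96 over the 10 genes and 0.0098 over all genes tested. Without it 0 of 10 genes were again at an unadjusted p under 0.05, against 9.75% of 11746 genes, and DESeq2 called 0 of 10, against 9.6%.

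In oocytes from primary follicles, edgeR called 0 of 10 genes between NTY and sham, against 0% of 10522 genes. At an unadjusted p under 0.05 the count was 0 of 10, against 8.15%, DESeq2 called 0 of 10, against 6.59%, and 0 of 10 genes had groups without overlap, against 10.5%. The primary NTY libraries varied widely: replicate 1 had Dazl at 298 TPM with Ybx2 at 2.60 and Cnot6l at 0.329, replicate 2 had Ybx2 at 4849 TPM with Cnot6l at 0.800 and Ddx4 at 0.186, and replicate 3 had all 10 genes above 1 TPM. Which of the genes were high thus differed between the 3 libraries of this group. The median difference was -1.12 over the 10 genes and -0.99 over 7383 genes on the log2(TPM + 1) scale, with 8 of the 10 lower in NTY. In the edgeR fit the medians were 0.26 over the 10 genes, with 4 lower, and -0.096 over all genes tested. With a library of these groups left out, this all-gene median ran from -1.05 (without primary NTY replicate 1) to 0 (without primary sham replicate 3).

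Primary and primordial follicles were compared within each treatment. In sham, edgeR called 0 of 10 genes, against 0.0095% of 10522 genes, the count at an unadjusted p under 0.05 was 0 of 10, against 9.28%, and DESeq2 called 0 of 10, against 7.29%. Cnot7 was higher in each primary library (77.1 to 131 TPM) than in each primordial library (13.9 to 54.8 TPM), the only one of the 10 genes without overlap, against 10.7% of all genes. The granulosa sum was 1475, 1218 and 2552 TPM in primary sham and 371, 601 and 2219 in primordial sham. The oocyte marker sum was 505, 361 and 397 TPM in primary sham and 353, 1008 and 246 in primordial sham. Their part in the order of Cnot7 was not tested. The median difference, primary minus primordial, was 1.12 over the 10 genes and 0.95 over 7302 genes on the log2(TPM + 1) scale, with 9 of the 10 higher in primary. In the edgeR fit it was 0.25 over the 10 genes, with 5 higher, and 0.29 over all genes tested. With a library of these groups left out, this all-gene median ran from 0.20 (without primary sham replicate 3) to 1.42 (without primordial sham replicate 3).

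In NTY, edgeR called 0 of 10 genes between primary and primordial follicles, against 0% of 10522 genes. At an unadjusted p under 0.05 the count was 2 of 10, Zar1l and Pabpc1l, against 9.97%, and DESeq2 called 1 of 10, Pabpc1l, against 10.7%. Zar1l had 0 counts in each primordial NTY library and 0, 27 and 15 counts in primary NTY, at least 14.2-fold higher over the summed libraries when the floor is 3 counts over the primordial group. This bound was 8.95-fold without primordial NTY replicate 3, and ran from 7.47-fold without primary NTY replicate 2 to 21.1-fold without primary NTY replicate 1. Its adjusted p by edgeR was 0.44. Pabpc1l had 0, 13 and 0 counts in primordial NTY and 0, 24 and 3574 in primary NTY, a fitted log2 fold change of 8.26 (SE 4.06, adjusted p = 0.50 by edgeR), and the groups overlapped. Most of the Pabpc1l counts of primary NTY thus came from replicate 3, without which the log2 fold change was 2.07. Dazl was higher in each primary NTY library than in each primordial NTY library, the only one of the 10 without overlap, against 5.34% of all genes. The granulosa sum was 1619, 2305 and 851 TPM in primary NTY and 1809, 3773 and 3451 in primordial NTY. The oocyte marker sum was 240, 134 and 474 TPM in primary NTY and 141, 413 and 2.56 in primordial NTY. Their part in the order of Dazl was not tested. The median difference was 1.31 over the 10 genes and -0.20 over 6005 genes on the log2(TPM + 1) scale, and 1.71 and 0.081 in the edgeR fit. With a library of these groups left out, the edgeR median over all genes ran from -0.61 (without primary NTY replicate 1) to 0.74 (without primordial NTY replicate 2). Without primordial NTY replicate 3 the medians were 0.162 over the 10 genes and -0.822 over 5671 genes on the log2(TPM + 1) scale, and 1.19 and 0.10 in the fit. Without it 0 of 10 genes were at an unadjusted p under 0.05, against 8.75% of 11746 genes, and DESeq2 called 0 of 10, against 8.99%, with an adjusted p of 0.098 for Pabpc1l. The fitted log2 fold change of Pabpc1l was then 7.72 by edgeR and 7.95 by DESeq2, against 8.26 and 8.44 with the library.

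The difference of the NTY effect between primary and primordial follicles was tested in the same fit. EdgeR called 0 of 10 genes, against 0.0095% of 10522 genes, the count at an unadjusted p under 0.05 was 0 of 10, against 11.8%, and DESeq2 called 0 of 10, against 11.6%. Without primordial NTY replicate 3 the unadjusted count was 0 of 10, against 12.3% of 11746 genes, and DESeq2 called 0 of 10, against 10.8%. These comparisons share groups, so their values stand side by side and are not added up. In the 4 comparisons of microdissected groups the standard error of the log2 fold change of the 10 genes ran from 1.48 to 4.06 with a median of 2.41 (1.40 to 4.70 with a median of 2.61 without primordial NTY replicate 3, over the 2 comparisons of its group). Even differences of many fold could thus have gone undetected there. Without primordial NTY replicate 3, edgeR also called 0 of the 10 genes in the 3 comparisons that use its group. Of the wider list of 78 genes, edgeR called 0 in each of the 6 comparisons, with 73 passing the filter in MII. Its counts at an unadjusted p under 0.05 were 4, 3 and 1 for NTY in primordial, primary and MII oocytes, 5 and 2 for the stages in sham and NTY, and 3 for the difference of effects, against 10.9%, 8.15%, 2.29%, 9.28%, 9.97% and 11.8% of all genes. DESeq2 called 6, 2, 0, 4, 2 and 4 in the same order, against 11.4%, 6.59%, 0.238%, 7.29%, 10.7% and 11.6%. Primordial NTY replicate 3 enters 3 comparisons: NTY in primordial oocytes, the stages in NTY and the difference of effects. Without it the unadjusted counts of the wider list were 3, 4 and 4, against 9.75%, 8.75% and 12.3% of all genes. DESeq2 then called 4, 4 and 3, against 9.6%, 8.99% and 10.8%.

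The genes lie on several chromosomes of the mouse genome (GRCm38, GENCODE M21). Btg4 is at chr9:51060901-51119875 on the plus strand, where 4 genes, Layn among them, overlap it on the other strand. Cnot7 is at chr8:40492540-40515847 on the minus strand and overlaps Vps37a and Zdhhc2 on the other strand. Gm15933 overlaps Zar1l on the same strand, and it was at most 1.38 TPM in MII and 0 in the microdissected libraries. Rpl7a-ps9 overlaps Cpeb1 on the other strand. The sources used here do not say whether counting used strand, so reads of overlapping genes cannot be told apart. Layn was at 0 TPM in all 6 MII libraries and reached 53.7 TPM in a microdissected library, with a median of 0 there. Vps37a and Zdhhc2 had medians of 15.5 and 101 TPM in MII, against 3.42 and 0.0562 TPM in the microdissected libraries. The part of these genes in the order of Btg4 and Cnot7 was not tested. Another 3 of the genes lie on chromosome 5: Zar1 at chr5:72576806-72581254, Cnot6l at chr5:96070333-96164171 and Zar1l at chr5:150507055-150518164, all on the minus strand and far apart. Ybx2 is at chr11:69935796-69941605 and Pabpc1l at chr2:164025450-164050538 on the plus strand, and Cpeb1 at chr7:81347026-81455465, Ddx4 at chr13:112598333-112652475 and Dazl at chr17:50279395-50293636 on the minus strand.

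Promoters of 9 of the 10 genes were in the RefSeq table (GRCm38.p6), which holds 250 bases before and 50 after a start annotated there, and Cnot7 was missing. These starts can differ from those of the GENCODE spans given above. On both strands, E-box CANNTG was found in 9 of 9 genes (in at least 1 entry of each gene) against 75.0% of 27025 genes, the Nobox motif TAATTG in 1 of 9 against 9.22%, and the Lhx8 motif TGATTG in 2 of 9 against 16.0%. By entry, the E-box was found in 10 of 12 against 72.3% of 32851. The E-box share is high among promoters in general. Zar1l held all 3 motifs, with TAATTG at 2 places, and Ddx4 was the other gene with TGATTG. The 250 bases before the start are shown for Btg4 and Zar1l, which were higher in every MII library, and for Ybx2 (the first of 2 entries), which ran the other way, with motif matches in capitals, except that a match crossing the start, as in Zar1l, is unmarked. They lie at chr9:51115751-51116000 (plus), chr5:150518160-150518409 (minus) and chr11:69935649-69935898 (plus). The Btg4 window lies inside the GENCODE span of that gene and not before it. A match is a string of letters and no evidence of binding.
Btg4: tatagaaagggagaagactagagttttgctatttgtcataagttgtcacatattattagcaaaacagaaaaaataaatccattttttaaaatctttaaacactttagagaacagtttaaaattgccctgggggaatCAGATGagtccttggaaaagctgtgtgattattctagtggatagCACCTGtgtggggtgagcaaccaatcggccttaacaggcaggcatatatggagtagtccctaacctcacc
Zar1l: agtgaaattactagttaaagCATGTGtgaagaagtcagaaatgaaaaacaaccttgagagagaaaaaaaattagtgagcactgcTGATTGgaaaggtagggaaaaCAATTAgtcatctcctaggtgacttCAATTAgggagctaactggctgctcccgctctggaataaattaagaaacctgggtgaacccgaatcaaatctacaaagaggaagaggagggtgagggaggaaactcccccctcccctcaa
Ybx2: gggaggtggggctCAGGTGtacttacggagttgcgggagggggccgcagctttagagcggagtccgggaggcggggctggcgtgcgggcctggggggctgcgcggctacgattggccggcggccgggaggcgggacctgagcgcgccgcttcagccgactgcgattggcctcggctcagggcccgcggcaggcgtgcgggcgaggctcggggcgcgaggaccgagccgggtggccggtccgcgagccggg

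Cpeb1 acts on messages that carry a uridine-rich element near the poly(A) signal, so the ends of the annotated transcripts were searched for TTTTAT or TTTTAAT in the last 150 bases and for AATAAA or ATTAAA in the last 50 bases. Of the 10 genes, 9 had a usable transcript end, and Zar1l did not. The element was found in 4 of 9 (Btg4, Cnot7, Ddx4 and Ybx2) against 22.2% of 20167 protein-coding genes, and the poly(A) signal in 7 of 9 against 75.5%. Element and signal together were found in Cnot7 and Ddx4, or 2 of 9, against 17.2%. Cnot7 held 3 elements, the last of them 3 bases before the signal, and Ddx4 held 1, at 21 bases before it. Windows around the last element are shown for the 4 genes, with the element and any signal in capitals, at chr8:40493036-40493062 (minus), chr13:112598371-112598400 (minus), chr9:51119797-51119826 (plus) and chr11:69941532-69941561 (plus). They were chosen after the levels were seen, and the libraries may use other ends than the annotated ones.
Cnot7: aggtacaTTTTATatcAATAAAaatac
Ddx4: acaaatgtttgcTTTTATaatatacagatt
Btg4: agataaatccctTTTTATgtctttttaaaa
Ybx2: cctctgaagccaTTTTATgaactgtcatgt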

How the data were processed

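The authors deposited raw counts of reads per gene and TPM values for 18 libraries, which were joined on the Ensembl identifier without its version. The submitters' processing notes name Trim Galore 0.4.1, TopHat2, featureCounts and mm10, and the handling of reads that match several genes is not given in the sources used here. Every deposited TPM column sums to 1000000, and 0 zeros differ between the tables. The member genes, the wider list, the markers and the motifs were chosen with earlier results of these data known.

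Counts were tested with edgeR 4.0.16 in R 4.3.3 (quasi-likelihood, robust, TMM, filterByExpr by group, Benjamini-Hochberg), with the 12 microdissected libraries in 1 fit and the 6 MII libraries in another. A fold change was printed for a member with an unadjusted p under 0.05. Standard errors of edgeR fits are the absolute log2 fold change divided by the square root of the test's F statistic. Wider genes were named when called, among the 3 with the highest median TPM of their role in MII or in the microdissected libraries, or paired with a member. Alternatives were RLE size factors, DESeq2 1.42.0, limma 3.58.1 (voom with quality weights, and log2(TPM + 1)), other filters on low counts, a replicate block, fits of only the 2 groups at issue, replicates 2 and 3 of primary NTY added together because their codes are alike, and leaving out each library. Between replicates of a group the chi-square per degree of freedom of the counts was at least 34.1, so no library was a plain copy of another of its group. Pairs across groups were not compared, and a second amplification of the same material would not be seen this way.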

Additional observations from a re-analysis of the deposited data

How the results depend on the processing

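The count of members called by edgeR was 0 in each of the 6 comparisons and was 0 under RLE size factors, voom with quality weights, limma on log2(TPM + 1), every filter on low counts, only the groups compared, the summed primary NTY libraries and each library left out, where these were run. At least 10 counts in every library left 3 to 5 members to test in the microdissected comparisons. Only the groups compared, run for 4 comparisons, left 7 to 10, and the summed libraries were run for 3. DESeq2 called 1 member, Pabpc1l in primary against primordial NTY (log2 fold change 8.44, adjusted p = 0.033), where the adjusted p ran from 0.43 to 1.00 over edgeR, voom and limma fits. DESeq2 without primordial NTY replicate 3, chosen after seeing the data, called 0 members (Pabpc1l log2 fold change 7.95, adjusted p 0.098). Of the wider list, DESeq2 called 6 and 2 genes for NTY in primordial and primary oocytes, against 11.4% and 6.59% of all genes. It called 4 and 2 for the stages in sham and NTY (7.29% and 10.7%) and 4 for the difference of effects (11.6%). Voom called 1 for the stages in sham (against 1.36% of all genes), and edgeR called 0 in each. Without primordial NTY replicate 3 DESeq2 called 4, 4 and 3, against 9.6%, 8.99% and 10.8% of all genes. These were for NTY in primordial oocytes, the stages in NTY and the difference of effects. With a library left out, the log2 fold change of Pabpc1l ran from 2.07 (without primary NTY replicate 3) to 8.84, apart from the fit without primordial NTY replicate 2, where primordial NTY is at 0 counts. Zar1l is at 0 counts there in every library, so its fitted size is not given. Neither gene could be fitted with at least 10 counts in every library, nor Zar1l with only the groups compared.

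With the replicate block, 0 members and 0 genes of the wider list were called in each comparison. The mean correlation of same-numbered libraries ran from -0.017 to 0.027 over the 5 pairs of groups, and at most 2 of 6 libraries went best with their own number, so the numbers were not taken to pair the libraries.

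The members without overlap between MII and microdissected libraries numbered 3 to 5 with each library left out, and 5 without primordial sham replicate 2. An alternative chosen after seeing the data, without the library whose oocyte markers sum to under 10 TPM, gave 3 members and 14 genes of the wider list, against 3 and 12. Within comparisons, scalings chosen after seeing the data (CPM on TMM sizes or plain totals) gave the same members without overlap as TPM, except that in MII the count was 0 in place of 1 with TMM sizes. Without that library the microdissected medians of the 10 genes moved by less than the spread between libraries, and the ratio of the highest to the lowest MII level of Zar1 ran from 11.6 to 21.9 with an MII library left out, both chosen after seeing the data. Of 176 refits of the paralogue shares, 3 moved by more than the spread between libraries, all of them with CPM in place of TPM. The microdissected libraries held more counts than the MII libraries, and the standard errors of the members were wider there (median 2.41 against 0.39 on the log2 scale).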

Other observations

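The other genes at least as uneven as Zar1 among the MII libraries were Gm21984, Gm10925 and Mir762, named after their values were seen. Mir762 was at 1071, 48.6 and 206 TPM in MII sham and 1667, 182 and 3.88 TPM in MII NTY. Its highest libraries, sham replicate 1 and NTY replicate 1, and its lowest, NTY replicate 3, were also those of Zar1. Gm21984 shared these 3 libraries, at 198, 90.8 and 130 TPM in sham and 298, 152 and 8.60 TPM in NTY. Gm10925 did not share this order, at 1955, 7.54 and 9.95 TPM in sham and 15.1, 109 and 47.4 TPM in NTY.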
